A study of Mus musculus with 4 samples.

Results

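Small RNA libraries from regulatory dendritic cells (DCreg) and immature dendritic cells (imDC) of C57BL/6J mice were compared for 345 miRNAs. These are the mature miRNAs, of 1078 in the whole table, whose deposited value summed over hairpins came to 10 ppm (parts per 1000000) or more of the library's total in either library. In imDC 312 miRNAs reached that level and in DCreg 265 did, of which 232 reached it in both. A miRNA that reached it in a single library can differ only towards that library. The 10 ppm threshold fell between miR-1186 and miR-1249-5p at 10.1 ppm just inside and miR-145-5p, miR-202-5p and miR-328-5p at 9.90 ppm just outside.

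The series holds 4 libraries, 1 for each cell type: hematopoietic stem cells (HSC), imDC, mature dendritic cells (maDC) and DCreg. The imDC came from femur marrow of mice 5 to 6 weeks old, depleted of red cells and grown for 6 days with GM-CSF at 10 ng/mL plus IL-4 at 1 ng/mL. The maDC received 10 ng/mL LPS from day 4 on and were taken at day 8 with CD11c beads. The DCreg were such maDC kept at least 7 more days with spleen stroma of endothelial-like type (ESSC), then freed with trypsin and selected again for CD11c. The imDC are not described as selected for CD11c, and how many mice stand behind a library is not stated in the labels. LPS, longer culture, stromal contact, trypsin and CD11c selection all separate DCreg from imDC and cannot be told apart. With 1 library a side there is no replicate error and no test. A miRNA is called higher or lower where its levels differ by at least 2-fold, and the calls describe these libraries.

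A miRNA is cut from a hairpin transcript and guides Argonaute to messenger RNAs that pair with its seed, the bases 2 to 8 from its 5′ end. A hairpin has a 5p and a 3p arm, of which usually one is kept as the main product. miRNAs with the same seed are counted as a family because they can recognise overlapping sets of messages. Several hairpins are often cut from a single transcript as a cluster. In dendritic cells, miR-155 and miR-146 are known for their induction by Toll-like receptor signalling, miR-142 and miR-223 mark blood cells, and the miR-99, miR-100, miR-125 and let-7 hairpins lie together at several loci active in stem and progenitor cells.

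The sequences below come from RefSeq (GRCm38.p6) and equal the mature sequences of the deposited table. They were chosen after the values were seen. Seed bases are in capitals. The first set holds miRNAs higher in DCreg, among them the miR-99/100 seed and 2 of the 3 members of the miR-125 seed. The third, miR-351-5p, stood at 20.6 ppm in imDC and 23.5 ppm in DCreg and is not shown.
miR-31-5p: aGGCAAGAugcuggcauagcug
miR-129-5p: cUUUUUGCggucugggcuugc
miR-99a-5p: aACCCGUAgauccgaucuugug
miR-99b-5p: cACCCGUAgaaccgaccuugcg
miR-100-5p: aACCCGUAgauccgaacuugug
miR-125a-5p: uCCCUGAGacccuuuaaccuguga
miR-125b-5p: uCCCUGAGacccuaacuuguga
miR-322-3p: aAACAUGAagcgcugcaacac

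The second set holds miRNAs lower in DCreg. It includes the 4 members of the seed of miR-17-5p and both members of the miR-92a seed that were lowest.
miR-9-5p: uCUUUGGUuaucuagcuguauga
miR-155-5p: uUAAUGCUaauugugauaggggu
miR-92a-3p: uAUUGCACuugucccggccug
miR-363-3p: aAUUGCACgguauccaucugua
miR-17-5p: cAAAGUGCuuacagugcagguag
miR-20a-5p: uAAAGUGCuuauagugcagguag
miR-93-5p: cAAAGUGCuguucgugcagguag
miR-106b-5p: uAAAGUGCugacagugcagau

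The third set holds miRNAs that share a seed and lie on opposite sides of the comparison. In each run of lines the first miRNAs were higher in DCreg and the last were lower.
let-7e-5p: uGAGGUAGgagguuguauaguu
let-7c-5p: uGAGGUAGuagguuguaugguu
let-7b-5p: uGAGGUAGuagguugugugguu
let-7g-5p: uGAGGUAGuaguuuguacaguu
let-7i-5p: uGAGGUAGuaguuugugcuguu
miR-98-5p: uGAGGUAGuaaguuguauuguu
miR-30a-5p: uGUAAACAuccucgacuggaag
miR-30e-5p: uGUAAACAuccuugacuggaag
miR-152-3p: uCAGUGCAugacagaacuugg
miR-148a-3p: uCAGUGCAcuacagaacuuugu
miR-92b-3p: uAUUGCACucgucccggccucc
miR-25-3p: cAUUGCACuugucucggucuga
miR-130a-3p: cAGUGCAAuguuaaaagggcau
miR-130b-3p: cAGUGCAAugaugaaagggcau

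In DCreg a few miRNAs stood far above imDC while most were lower. Scaled to the deposited totals, 63 of 345 miRNAs (18.3%) were at least 2-fold higher and 187 (54.2%) at least 2-fold lower, and the median log2 ratio was −1.25. The balance between the directions moved with the scaling. The trimmed mean of M-values raised the median by 0.65 and gave 75 higher and 131 lower. Scaling by the median of ratios raised it by 0.64 and gave 75 and 133. All reads in the list as the total lowered it to −1.78 and gave 53 and 224. Under all 6 scalings 53 miRNAs (15.4%) were at least 2-fold higher and 131 (38.0%) at least 2-fold lower. Of the miRNAs described below as higher or lower, miR-21-5p, miR-30e-5p, miR-93-3p, miR-106b-5p, miR-107-3p, miR-140-3p, miR-146b-5p, miR-152-3p, miR-181a-5p, miR-196b-5p, miR-210-3p, miR-503-5p, miR-5097, let-7f-5p, let-7g-5p and let-7i-5p came under 2-fold with at least 1 scaling, and each kept its sign under all 6.

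**Figure D1:**
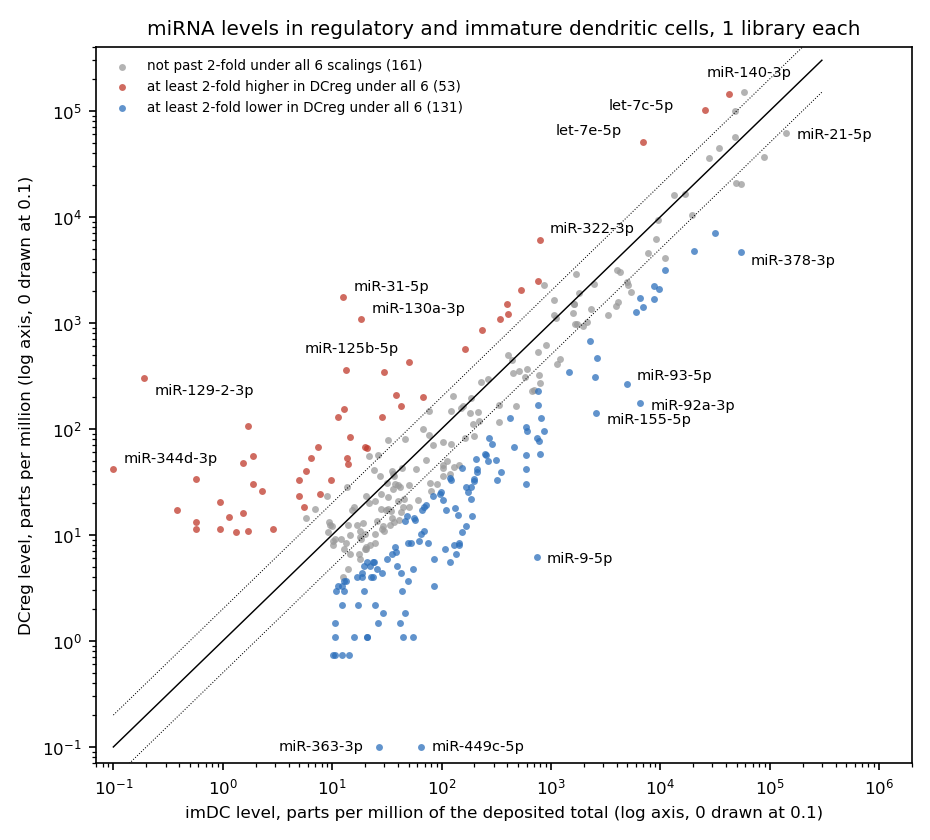
Each point is 1 of the 345 miRNAs, with its level in imDC on the x axis and in DCreg on the y axis, both in ppm of the deposited total on log axes with 0 drawn at 0.1. Red points (53) are at least 2-fold higher and blue points (131) at least 2-fold lower in DCreg under all 6 scalings, the grey points (161) are neither, the solid line marks equal levels and the dotted lines mark 2-fold.

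The deposited totals were 5251069 for imDC and 2725948 for DCreg, and the lists of unique sequences held 6554086 and 4904897 reads. Reads were recounted from these lists by exact match to the mature sequences, which placed 80.4% of the imDC reads and 80.2% of the DCreg reads. Of the 250 called miRNAs, 200 had at least 50 recounted reads in a library, and all 200 had the same direction in the recount. Of these, 194 were also at least 2-fold apart, 33 of the 39 higher and all 161 lower. The recounted log2 ratio was a median of 0.41 below the deposited one over the 270 miRNAs with enough reads (−0.41). Recounted ratios below carry 95% intervals that cover counting error only, since amplified reads carried no molecular identifiers and so are not independent.

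The DCreg library was dominated by fewer miRNAs. The 10 most abundant made up 61.9% of the imDC total and 78.3% of the DCreg total, and 7 were shared between both sets of 10. The let-7 list took 29.1% of the deposited total in imDC and 51.8% in DCreg. In recounted reads the same share was 48.7% and 74.7%. The most abundant miRNA of imDC was miR-21-5p at 140653 ppm, a broadly expressed miRNA of activated and myeloid cells, which stood at 61873 ppm in DCreg. The most abundant of DCreg was miR-140-3p, a product of a hairpin within Wwp2, at 57794 ppm in imDC and 151631 ppm in DCreg. Its recounted ratio was 2.01 (2.00 to 2.02), but the direction turned, to a log2 ratio of −0.30, when reads with unmatched 3′ bases were left out. That recount also left out reads running past the annotated 3′ end into templated bases, 57.9% of its reads in imDC and 62.4% in DCreg. Reads at the annotated 3′ end took 15.4% and 6.84%. The scaled ratio was under 2-fold under at least 1 scaling, with log2 values from 0.86 to 2.05. Others near the top moved little: miR-29a-3p stood at 48046 ppm in imDC and 57230 ppm in DCreg, and miR-185-5p at 16915 and 16414 ppm.

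The miRNAs with the largest increases at 100 ppm or more included miR-31-5p and miR-129-5p. miR-31-5p, from a hairpin in an exon of the long noncoding RNA AL805899.1 (chromosome 4, 88910557 to 88910662, minus strand), stood at 1738 ppm in DCreg, against 12.6 in imDC, 34.9 in maDC and 33.1 in HSC. DCreg was thus alone at a high level, 138-fold above imDC, with 44 recounted imDC reads against 3656 DCreg reads (111-fold, 82.8 to 153). miR-129-5p, shared by a hairpin in the intron of Mir670hg on chromosome 2 and one on chromosome 6, stood at 107 ppm in DCreg and 1.71 in imDC, beside 0.894 in maDC and 3.79 in HSC. Its ratio of 62.7 was nearly the same in recounted reads (61.9, 33.4 to 130). The 3p arm of the chromosome 2 hairpin, miR-129-2-3p, was deposited at 0.190 ppm in imDC, which is 1 unit, and 303 ppm in DCreg. The read lists held 0 and 1 reads of it. Its mature sequence holds a run of 4 adenines, and reads with such a run were scarce in both lists (0.0729% in imDC and 0.0595% in DCreg), so the recount could not check it.

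miR-344d-3p was listed at 0 in HSC, imDC and maDC and at 41.8 ppm in DCreg, which put DCreg at least 73.2-fold higher than imDC against a floor of 3 units. Its recounted reads numbered 0 in imDC and 258 in DCreg. It is named here because of these values.

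Of the stem cell and progenitor list, 14 of 15 members were higher in DCreg and 1 was lower, beside 18.3% and 54.2% of all 345 miRNAs. The list median log2 ratio was 2.88 against −1.25 over all members, and 13 of the 14 held under all 6 scalings. In recounted reads the median was 2.48 over the 14 members with reads. Among the higher members, miR-100-5p, miR-10b-5p, miR-125b-1-3p and let-7e-3p stood at 0.571, 1.90, 1.52 and 1.71 ppm in imDC. They passed the 10 ppm threshold only through DCreg, so their direction was fixed by it. The list takes the miR-99/100, miR-125 and miR-10 families with let-7e, miR-130a, miR-196 and miR-126, which are known from hematopoietic stem and progenitor cells. Summed over its 25 entries in the whole table, it was lowest in the HSC library (7169 ppm) and highest in DCreg (58332 ppm). Between them lay imDC at 8437 ppm and maDC at 28772 ppm, and the recounted sums had the same order. A single member, let-7e-5p, supplied 51264 ppm of the DCreg sum, 26478 of maDC, 6943 of imDC and 3606 of HSC. The order of the sums was thus that of let-7e-5p, and not every member had it. miR-125b-5p, miR-99a-5p and miR-10a-5p were higher in HSC than in imDC, while miR-125a-5p and miR-99b-5p were lower.

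miR-125b-5p, a brake on apoptosis and differentiation in blood progenitors, stood at 363 ppm in DCreg, against 13.5 in imDC, 16.1 in maDC and 58.0 in HSC. The DCreg level lay above that of the HSC, and its ratio to imDC was 26.9 (recounted 22.5, 18.4 to 27.9). miR-125a-5p, with the same seed, stood at 423, 50.8, 108 and 45.4 ppm in the same order. The ratio of DCreg to imDC was 8.32 (recounted 6.51, 5.58 to 7.62).

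miR-99a-5p stood at 345 ppm in DCreg and 29.7 in imDC, beside 8.27 in maDC and 175 in HSC. miR-99b-5p, which had the highest level of this seed, stood at 2497, 755, 987 and 195 ppm in that order. The seed of the miR-99/100 miRNAs is known for sites in components of the mTOR pathway. miR-99a-5p was 11.6-fold higher in DCreg than in imDC (recounted 8.59, 7.06 to 10.5) and miR-99b-5p 3.31-fold (recounted 2.60, 2.48 to 2.72). miR-100-5p differs from miR-99a-5p at 1 base and had 0 recounted reads in imDC and 78 in DCreg, beside deposited levels of 0.571 and 33.4 ppm.

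The miR-10 pair, encoded within the Hox gene clusters, was also higher. miR-10a-5p stood at 2042 ppm in DCreg, against 532 in imDC, 1018 in maDC and 2193 in HSC, a 3.84-fold difference (recounted 2.94, 2.79 to 3.10). The DCreg level was close to that of the HSC. miR-10b-5p stood at 1.90 ppm in imDC and 55.4 ppm in DCreg, with 1 and 104 recounted reads. The member that was lower was miR-196b-5p, at 33.7 ppm in imDC and 12.5 ppm in DCreg, and this call did not hold under all 6 scalings. miR-130a-3p was deposited at 18.3 ppm in imDC and 1086 ppm in DCreg, a ratio of 59.4, and had 0 reads in both lists. It too holds a run of 4 adenines, so the recount could not check this value.

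The TLR and NF-kB list ran the other way, with 13 of 17 members lower, 1 higher and a median of −2.65 (recounted −2.90), beside 54.2% lower and a median of −1.25 over all 345. Under all 6 scalings 11 were lower, beside 38.0% of all, and 1 was higher. miR-155-5p, induced by Toll-like receptor signalling and needed for full dendritic cell activation, stood at 141 ppm in DCreg and 2609 in imDC, beside 1651 in maDC and 47.6 in HSC. Its level in imDC was 18.5-fold that in DCreg (recounted 24.9, 22.4 to 27.8). miR-9-5p, known to target Nfkb1, stood at 6.24 ppm in DCreg, against 739 in imDC, 156 in maDC and 0.946 in HSC. Of miRNAs at 100 ppm or more it had the largest fold in the lower direction, 119 (recounted 110, 86.2 to 141), and the opposite arm miR-9-3p was 21.7-fold lower.

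Other inducible miRNAs of the list showed high levels in imDC and maDC and low ones in DCreg. miR-147-3p stood at 82.2 ppm in DCreg and 745 in imDC, beside 589 in maDC and 28.2 in HSC. In the same order miR-132-3p stood at 67.9, 455, 374 and 14.4 ppm, and its cluster partner miR-212-3p at 25.3, 174, 159 and 3.31 ppm. These 3 miRNAs were 9.07-fold, 6.71-fold and 6.86-fold lower in DCreg than in imDC. miR-222-3p, which represses Kit, was 4.63-fold lower in DCreg at 2106 ppm.

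The miR-146 pair was split. miR-146b-5p stood at 36546 ppm in DCreg, against 89225 in imDC, 67585 in maDC and 6182 in HSC, 2.44-fold lower than in imDC under total scaling (recounted 2.61, 2.58 to 2.64). Its log2 ratio ranged from −1.82 to −0.63 over the scalings. miR-146a-5p, a feedback inhibitor of TRAF6 and IRAK1, stood at 1115, 1105, 309 and 1561 ppm in that order, so its DCreg and imDC levels were nearly equal. The member that was higher was miR-221-5p, at 165 ppm in imDC and 564 ppm in DCreg (3.41-fold, recounted 2.50, 2.27 to 2.75).

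All 6 arms of the blood lineage markers miR-142, miR-223 and miR-155 were present in DCreg, at a sum of 10341 ppm beside 16065 ppm in imDC. Of these, 5 of 6 were lower in DCreg, beside 54.2% of all 345. miR-142-5p, the main arm in these libraries, stood at 9513 ppm in imDC and 9377 ppm in DCreg. miR-142-3p stood at 861 and 94.6 ppm, a 9.09-fold difference. miR-223-3p, a myeloid miRNA of granulocytes and monocytes, stood at 669 ppm in DCreg and 2264 in imDC, beside 635 in maDC and 3438 in HSC. It was 3.38-fold lower than in imDC (recounted 4.54, 4.30 to 4.79), while the maDC level lay close to that of DCreg. In these bulk libraries fewer cells of a type and less miRNA per cell cannot be told apart.

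Of the myeloid list, 8 of 17 members were lower and 1 was higher, with a median of −0.91, and 4 of the 8 were lower under all 6 scalings. Both counts were smaller shares than the 54.2% and 38.0% of all 345 miRNAs. The higher one, miR-511-3p from an intron-hosted hairpin known from macrophages, was deposited at 397 ppm in imDC and 1492 ppm in DCreg and had 1 and 3 reads in the lists. It is another miRNA with a run of 4 adenines. miR-21-5p was 2.27-fold lower (recounted 3.05, 3.03 to 3.07), with log2 ratios from −1.71 to −0.53. miR-34a-5p, a p53 target known from dendritic cell differentiation, stood at 208 ppm in imDC and 52.5 ppm in DCreg.

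Of miR-17-92 and its paralogues, known for promoting cell cycle progression and survival, 13 of 14 members were lower in DCreg, beside 54.2% of all 345, with a median of −2.72 (recounted −3.29). Under all 6 scalings 11 were lower and none was higher. miR-92a-3p stood at 174 ppm in DCreg, against 6531 in imDC, 380 in maDC and 11043 in HSC. The DCreg level was 37.6-fold under that of imDC (recounted 64.1, 58.4 to 70.6), and the maDC level was also low. miR-93-5p stood at 266, 4920, 425 and 5857 ppm in the same order, 18.5-fold lower (recounted 24.7, 22.7 to 26.9).

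miR-17-5p stood at 590 ppm in imDC and 56.5 ppm in DCreg. miR-20a-5p stood at 347 and 38.9 ppm, and miR-19b-3p at 135 and 6.60 ppm. miR-363-3p was at 26.9 ppm in imDC and listed at 0 in DCreg, at least 24.4-fold lower, with 108 and 0 recounted reads. The member called higher was miR-93-3p, at 8.95 and 23.1 ppm, for which the recount gave 26 reads in imDC and 2 in DCreg, the opposite direction.

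Of the let-7 list, 5 of 15 members were higher and 6 were lower, beside 18.3% and 54.2% of all 345. let-7 miRNAs repress Lin28, Ras and Myc family messages and are among the most abundant miRNAs of differentiated cells. let-7e-5p stood at 51264 ppm in DCreg and 6943 in imDC, beside 26478 in maDC and 3606 in HSC. It was 7.38-fold higher in DCreg than in imDC (recounted 7.62, 7.51 to 7.73), and maDC lay between them. let-7c-5p stood at 25570 ppm in imDC and 102576 in DCreg (4.01-fold, recounted 3.21, 3.20 to 3.23). let-7b-5p stood at 42164 and 142652 ppm (3.38-fold, recounted 2.44, 2.42 to 2.45).

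let-7a-5p, let-7d-5p and let-7f-5p did not reach 2-fold under every scaling. let-7f-5p stood at 48126 ppm in imDC and 98996 ppm in DCreg, and its recounted ratio was 1.47. On the lower side, let-7i-5p stood at 54972 and 20574 ppm, 2.67-fold lower (recounted 3.55, 3.51 to 3.59). let-7g-5p stood at 49326 and 20770 ppm, 2.37-fold lower (recounted 3.18, 3.15 to 3.21). miR-98-5p stood at 1460 and 346 ppm, 4.22-fold lower, and of these 3 it alone was past 2-fold under all 6 scalings. Since let-7c-5p differs from let-7b-5p, and let-7a-5p from let-7c-5p, let-7e-5p and let-7f-5p, at 1 base each, sequencing errors and mapping rules can move reads between them.

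Other miRNAs with large differences belong to several families. miR-322-3p, from an X-linked hairpin of the list of miR-15, miR-16 and miR-322, stood at 6102 ppm in DCreg, against 787 in imDC, 918 in maDC and 1607 in HSC, 7.76-fold higher than in imDC (recounted 6.58, 6.28 to 6.90). In that list it was the 1 of 11 that was higher, while 7 were lower, near the 54.2% of all 345. miR-378-3p, from an intron of the metabolic coactivator gene Ppargc1b, stood at 4643, 54156, 10969 and 25858 ppm in that order, 11.7-fold lower (recounted 15.4, 15.1 to 15.7). miR-33-5p, which sits in Srebf2 and represses cholesterol export through Abca1, stood at 2523 ppm in imDC and 310 ppm in DCreg, 8.15-fold lower.

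All 7 members of the miR-181 list were lower, beside 54.2% of all 345, with a median of −2.50, and 5 were lower under all 6 scalings. miR-181b-5p stood at 2627 ppm in imDC and 464 ppm in DCreg. miR-181a-5p, a tuner of lymphocyte receptor signalling, stood at 3926 and 1441 ppm. All 3 members from the miR-183, miR-96 and miR-182 list were higher, beside 18.3% of all. Of the 3, miR-183-5p, at 9.71 and 32.6 ppm, passed the 10 ppm threshold only through DCreg, so its direction was fixed. miR-182-5p had the largest level of the 3, 38.3 ppm in imDC and 208 ppm in DCreg (5.42-fold, recounted 6.51, 5.49 to 7.77). miR-210-3p, the best known miRNA of the hypoxia response, stood at 4955 and 2410 ppm.

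The remaining lists were smaller. Of the miR-30 list 2 of 11 were higher and 6 lower, and of the miR-23/27/24 list 5 of 10 were lower, near the shares over all 345 (18.3% higher and 54.2% lower). miR-27b-3p stood at 6544 ppm in imDC and 1705 ppm in DCreg, and its opposite arm miR-27b-5p at 596 and 30.4 ppm. Of the miR-29 list 4 of 6 were lower. Of the 4, miR-29b-1-5p, miR-29a-5p and miR-29c-5p stood under 10 ppm in DCreg, so the threshold fixed their direction. miR-296-3p of the imprinted Gnas region stood at 143 ppm in imDC and 8.07 ppm in DCreg, while miR-298-5p from the same region stood at 1057 and 1186 ppm. Of 82 miRNAs from the imprinted Dlk1-Dio3 region in the table, 1 was a member, miR-377-5p at 0.571 and 13.2 ppm, and it had no reads in either list.

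**Figure D2:**
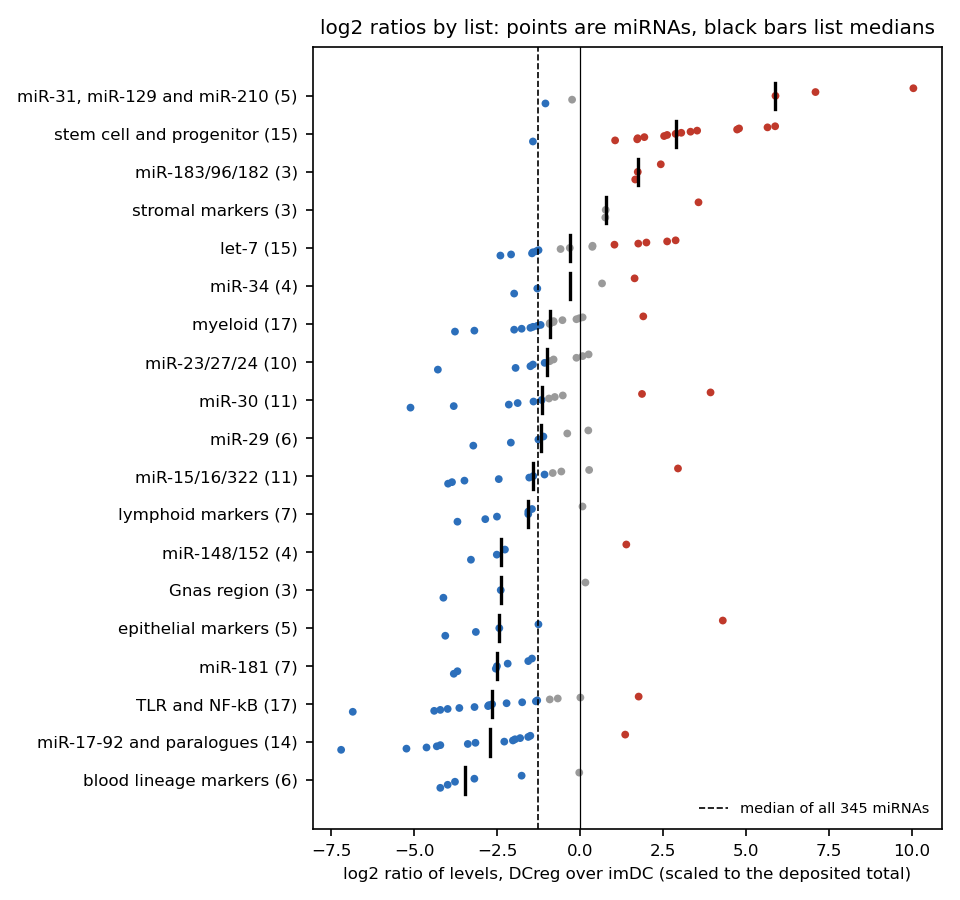
Points are miRNAs of each list with 3 or more members, placed by the log2 ratio of DCreg over imDC, with the list's size in brackets, red for at least 2-fold higher and blue for at least 2-fold lower. Black bars are list medians and the dashed line is the median of all 345 miRNAs (−1.25), with the stem cell and progenitor list at 2.88 and miR-17-92 and paralogues at −2.72.

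Markers of other cells were read from the same libraries. Both endothelial marker arms were near 0, with miR-126-3p at 1.90 ppm in imDC and 0.367 ppm in DCreg and miR-126-5p at 6.09 and 1.10 ppm. The stromal markers summed to 97.9 ppm in imDC, 241 ppm in maDC and 310 ppm in DCreg. In recounted reads, scaled to their own total, the sums were 165, 321 and 298 ppm. The maDC had no stromal culture. miR-199a-3p and miR-199b-3p, which divide the same reads, took most of these sums, at 73.6, 143 and 96.2 ppm each. Recounted miR-143-3p stood at 10.6, 29.1 and 94.8 ppm in the same order. It was highest in DCreg among these libraries, but HSC had 251 ppm. The stromal sums were also larger in HSC, at 1524 ppm deposited and 1864 ppm recounted. Of 12 entries 3 were members and 1 was higher, miR-143-3p, a miRNA of smooth muscle and fibroblasts, at 12.9 and 155 ppm (recounted 8.92, 6.72 to 12.0). The opposite arm miR-143-5p went the other way, with 42 deposited units in imDC and 2 in DCreg. The cluster partner miR-145-5p rested on 2 and 27 deposited units, miR-214-3p on 7 and 26, and miR-199a-5p on 1 and 1.

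The muscle markers summed to 41.5 ppm in imDC, 46.3 ppm in maDC and 259 ppm in DCreg. miR-1a-3p stood at 129 ppm in DCreg and 11.4 in imDC, beside 14.3 in maDC and 7773 in HSC, and miR-206-3p at 129, 28.8, 31.3 and 858 ppm in that order. miR-133a-3p and miR-133b-3p, made with them in muscle, were at 2 and 1 units in imDC and at 0 in DCreg. The deposited sums of the stromal and muscle markers differed in the same direction as the stem cell and progenitor list, and whether carried-over stromal cells contributed to the DCreg values was not tested. Of 7 lymphoid marker members 6 were lower, beside 54.2% of all 345, with miR-150-5p at 17.1 and 2.20 ppm. The erythroid marker miR-451 rested on 84 and 3 deposited units. Of 5 epithelial marker members 4 were lower, among them miR-200c-3p at 144 and 8.44 ppm, and 1 was higher, miR-200c-5p, which had no reads in either list.

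Shared seeds did not always move together. Of 33 seeds held by 2 or more members, 22 had lower calls only, 4 had higher calls only and 7 had calls in both directions, where 54.2% of all 345 miRNAs were lower. The 7 split seeds were those of let-7, miR-25/92, miR-30-5p, miR-148 and miR-152, miR-130/301, miR-34/449 and miR-30c-3p. Summed over its 9 members, the let-7 seed stood at 290525 ppm in imDC and 517617 ppm in DCreg, 1.78-fold higher (recounted 1.53). Of those 9, 4 were higher, 3 were lower and 2 were neither.

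In the seed of miR-25-3p the sum was 5.17-fold lower in DCreg, while miR-92b-3p was 3.41-fold higher (recounted 5.11, 3.70 to 7.17). miR-92b-3p was a minor member, at 19.8 ppm in imDC and 67.5 ppm in DCreg. In the seed of miR-148 and miR-152, miR-152-3p stood at 857 and 2258 ppm (2.64-fold higher, recounted 1.84, 1.77 to 1.92). miR-148a-3p stood at 320 and 32.6 ppm and miR-148b-3p at 597 and 105 ppm, so miR-152-3p made up most of the seed's sum in DCreg.

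miR-30a-5p and miR-30e-5p differ at a single base, written C13U with positions counted from the 5′ end of miR-30a-5p. miR-30a-5p stood at 234 ppm in imDC and 856 ppm in DCreg, 3.66-fold higher (recounted 2.83, 2.61 to 3.06). miR-30e-5p stood at 1199 and 454 ppm, 2.64-fold lower (recounted 3.87, 3.60 to 4.16). The recounts of this pair used exact matches, and they showed the same split.

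In the seed of miR-34, miR-34b-5p was higher at 7.81 and 24.6 ppm and miR-34c-5p stood at 127 and 202 ppm. miR-449a-5p and miR-449c-5p, from an intron of Cdc20b and known from ciliated cells, stood at 54.7 and 65.3 ppm in imDC. In DCreg they stood at 1.10 ppm and 0, which for miR-449c-5p is at least 59.4-fold lower. The split of the miR-130/301 seed rests on miR-130a-3p, which had no reads in the lists. Without it the recounted sum of that seed was 4.46-fold lower in DCreg.

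Seeds with 1 direction gave large sums as well. The seed of miR-17-5p and miR-93-5p stood at 6999 ppm in imDC and 766 ppm in DCreg, 9.13-fold lower (recounted 12.0). The seed of miR-103-3p and miR-107-3p, known from lipid and insulin metabolism, stood at 23623 and 5973 ppm, 3.96-fold lower. The seed of miR-125 was 9.53-fold higher, that of miR-10 was 3.93-fold higher and that of miR-99/100 was 3.66-fold higher.

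**Figure D3:**
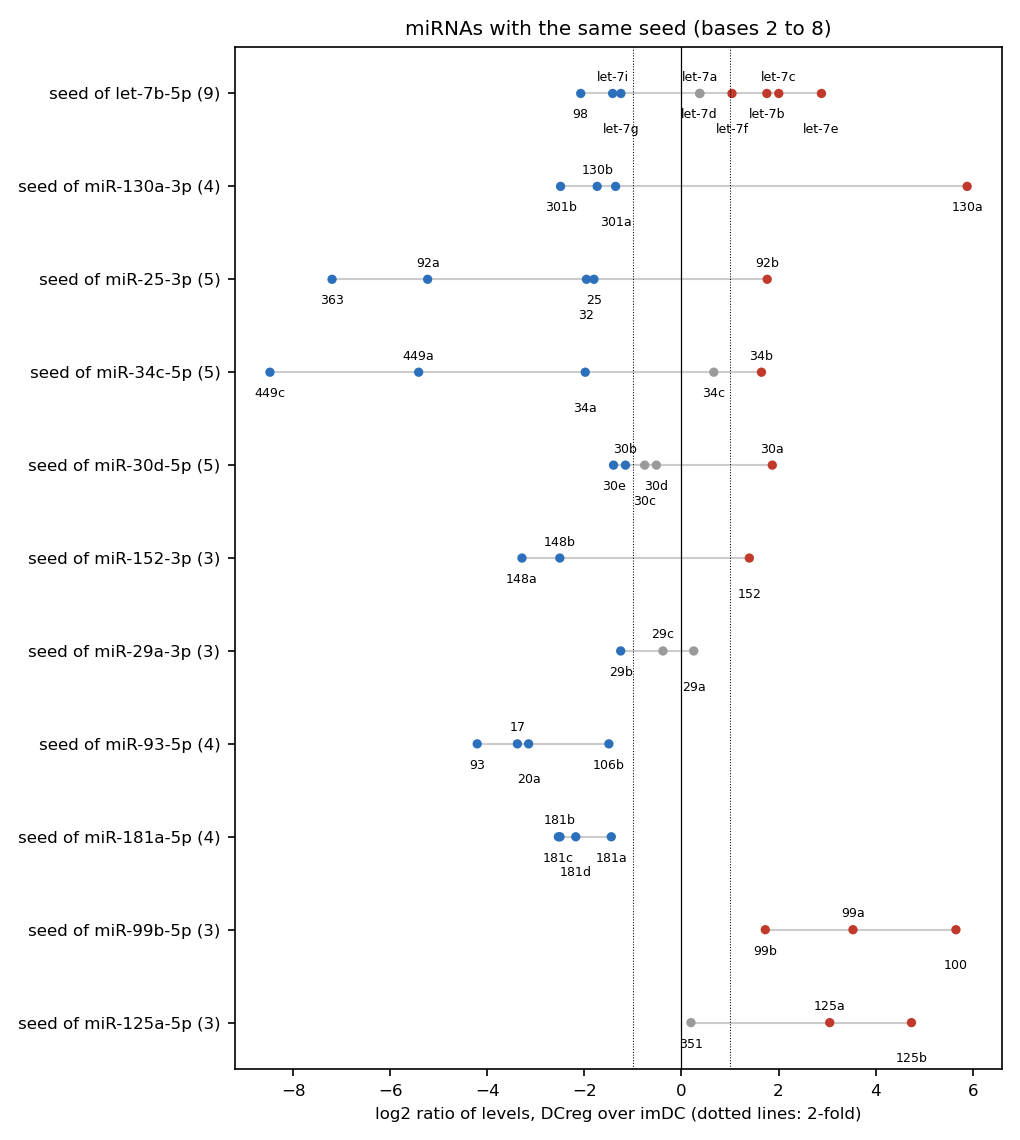
Each line holds the members of 1 of 11 seeds, named by one of them with the number of members in brackets, and each point is a miRNA placed by its log2 ratio of DCreg over imDC. Red points are at least 2-fold higher and blue points at least 2-fold lower, and the seed of miR-25-3p spans from miR-363-3p, at 0 in DCreg, to miR-92b-3p at 1.77.

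Genomic clusters shared a direction in part. Of 31 clusters with 2 or more entries among the members, 3 had all entries higher, 9 had all lower and 5 had entries in both directions, and the remaining clusters held entries that were neither. These counts stand beside 18.3% higher and 54.2% lower over all 345. The 3 were mir-99alet-7c-1mir-125b-2, mir-99blet-7emir-125a and mir-183mir-96mir-182. They include entries under 10 ppm in imDC, namely miR-125b-5p of mir-125b-2, let-7e-3p and miR-183-5p, which could only be higher. Likewise, entries under 10 ppm in DCreg in the clusters with all entries lower could only be lower. The mir-99blet-7emir-125a hairpins lie on the plus strand of chromosome 17, let-7e and mir-125a within an intron of Spaca6, and all 6 arms were higher, from 3.31-fold for miR-99b-5p to 8.32-fold for miR-125a-5p. The mir-99alet-7c-1mir-125b-2 hairpins lie on chromosome 16 with mir-99a and let-7c-1 in an intron of Mir99ahg. In the related cluster on chromosome 9, 3 of 4 entries were higher and let-7a-5p, assigned to let-7a-2, was not. The 3 higher entries stood at 0.571, 1.52 and 7.05 ppm in imDC, so their direction was fixed by the 10 ppm threshold. let-7c-5p and miR-125b-5p are each made from 2 hairpins with the same mature sequence, so their reads cannot be assigned to a locus.

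The mir-17~mir-92a-1 cluster, in exons of Mir17hg on chromosome 14 between 115043671 and 115044391, had all 7 entries lower. Its X-linked paralogue mir-106a~mir-363 had all 3 entries lower, of which miR-19b-3p and miR-92a-3p have the same mature sequence as entries of mir-17~mir-92a-1. miR-92a-3p was deposited separately for its 2 hairpins, 33.8-fold lower for mir-92a-1 and 68.2-fold lower for mir-92a-2, although both give the same mature sequence. Over 14 such miRNAs with 2 hairpins the median gap between the log2 ratios was 0.04, and this was the widest at 1.00.

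The 5 clusters with entries in both directions differed in the reads behind them. In mir-221~mir-222, miR-221-5p was 3.41-fold higher and miR-222-3p was 4.63-fold lower. In the X-linked mir-322mir-503mir-351~mir-542 group, miR-322-3p was 7.76-fold higher and miR-503-5p was 2.10-fold lower. In the pair within Huwe1, the let-7f-5p entry of let-7f-2 was 2.18-fold higher and miR-98-5p was 4.22-fold lower. let-7f-5p is also made from let-7f-1 with the same mature sequence, so its reads cannot be assigned to this locus. The split of mir-106b~mir-25 rests on miR-93-3p, whose recount went the opposite way, and that of mir-200c~mir-141 on miR-200c-5p, which had no recounted reads.

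**Figure D4:**
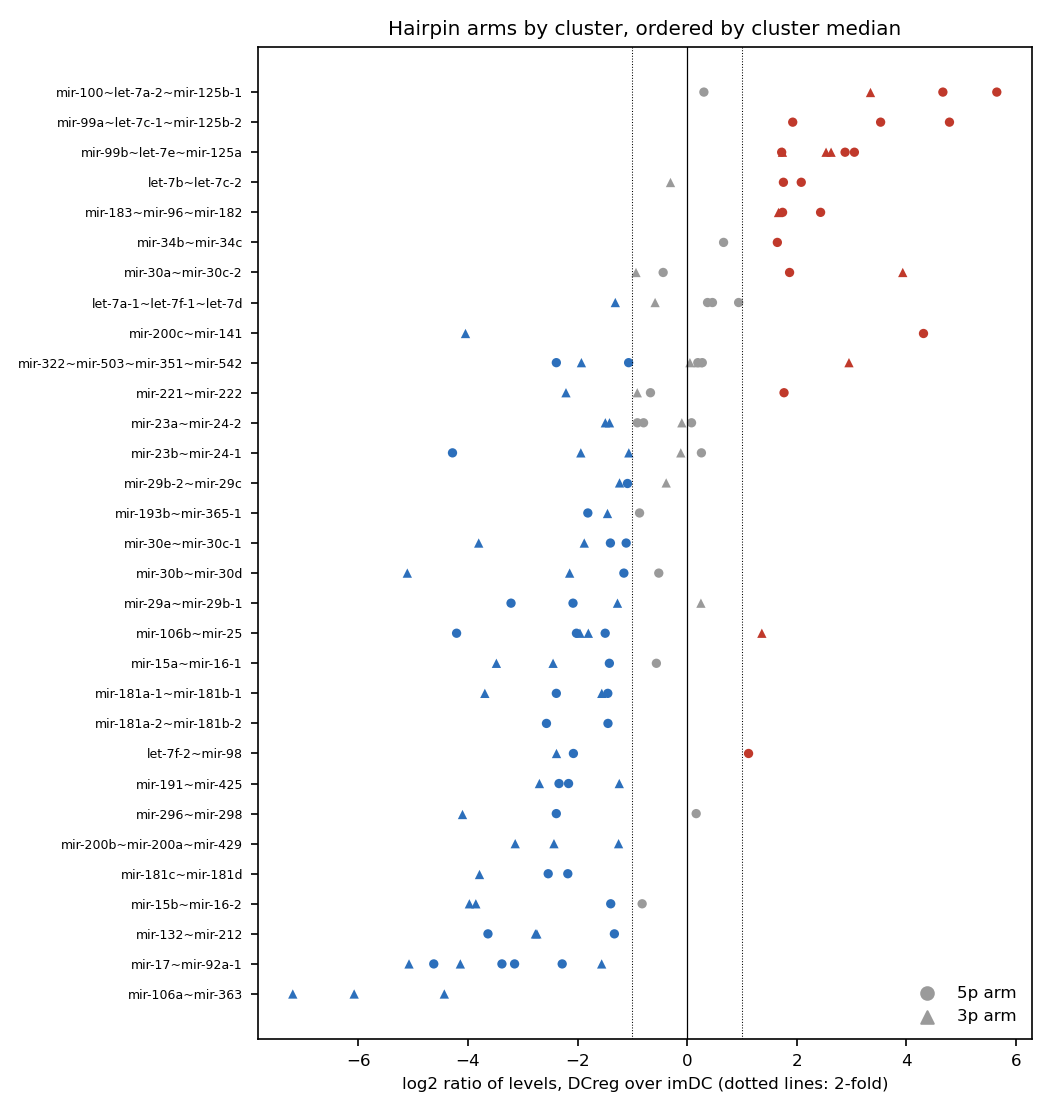
Each line is 1 of 31 genomic clusters, ordered by median, with circles for 5p arms and triangles for 3p arms placed by the log2 ratio of DCreg over imDC. Red is at least 2-fold higher and blue at least 2-fold lower, and the mir-99, mir-100 and mir-183 clusters lie to the right while mir-17~mir-92a-1 and mir-106a~mir-363 lie farthest to the left.

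The balance of the 2 arms of a hairpin also differed. Of 97 hairpins with both arms measured, 26 had a ratio of arms that differed by 4-fold or more between imDC and DCreg. In 21 of the 26 each arm had at least 50 recounted reads in at least 1 library. All 21 differed in the same direction in the recount and 17 by 4-fold or more. Some rested on few DCreg reads, with 2 reads each for the 3p arms of mir-30d, mir-186 and mir-16-2 and 5 for the 5p arm of mir-450b. mir-9-2 and mir-9-3 share their mature sequences, so the same reads were counted for both. The less abundant arm was relatively lower in DCreg in 52 of the 97. For mir-142 the ratio of 5p to 3p was 11.1 in imDC and 98.9 in DCreg, with the 5p level nearly equal in both. For mir-423 the ratio of 5p to 3p was 11.8 and 79.2, and for mir-30a it was 5.81 and 40.6.

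Other hairpins differed the other way or towards the 3p arm. mir-221 shifted towards its minor 5p arm, with a ratio of 3p to 5p of 119 in imDC and 18.6 in DCreg. mir-322 shifted further towards its leading 3p arm, with a ratio of 3p to 5p of 1.92 and 12.3. The leading arm differed between the libraries for 8 hairpins, of which 4 had enough reads in both arms and 2 showed the exchange in the recount. These 2 were mir-212, with a ratio of 5p to 3p of 1.09 in imDC and 0.597 in DCreg, and mir-193b, with 0.877 and 1.33. mir-1306 was not among the 4, since its 5p arm had under 50 recounted reads in each library. Its ratio of 5p to 3p was 0.246 in imDC and 1.77 in DCreg. The 5p and 3p arms had 45 and 161 recounted reads in imDC and 35 and 17 in DCreg.

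The ends of the reads were compared for the 50 miRNAs with at least 1000 reads in each library. Untemplated uridine at the 3′ end, a mark that terminal uridylyl transferases add to miRNAs, took a median of 1.31% of a miRNA's reads in imDC and 2.77% in DCreg. It was higher in DCreg for 41 of the 50 and lower for 9. For let-7i-5p the share was 6.27% in imDC and 18.3% in DCreg. For miR-744-5p it was 18.4% and 35.9%, and for miR-223-3p 10.6% and 24.5%. let-7a-5p went the other way at 0.0685% and 0.0551%, and so did miR-340-5p at 0.829% and 0.472%.

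Untemplated adenine did not share this lean, being higher in DCreg for 25 of the 50 and lower for 24. Reads that ended exactly at the annotated 3′ end were less frequent in DCreg for 36 of the 50. Starts were mostly fixed, with a median of 99.3% at the annotated 5′ end in imDC and 99.4% in DCreg. Exceptions included miR-140-3p, miR-101a-3p, miR-101b-3p, miR-5114 and miR-223-3p. miR-101b-3p reads began at the annotated base in 41.2% of cases in imDC and 69.8% in DCreg, with most others earlier. For miR-140-3p this share was lower in DCreg, at 19.1% against 38.5% in imDC, 46.9% in maDC and 32.6% in HSC. Nearly all other miR-140-3p reads began later, which shifts the seed.

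**Figure D5:**
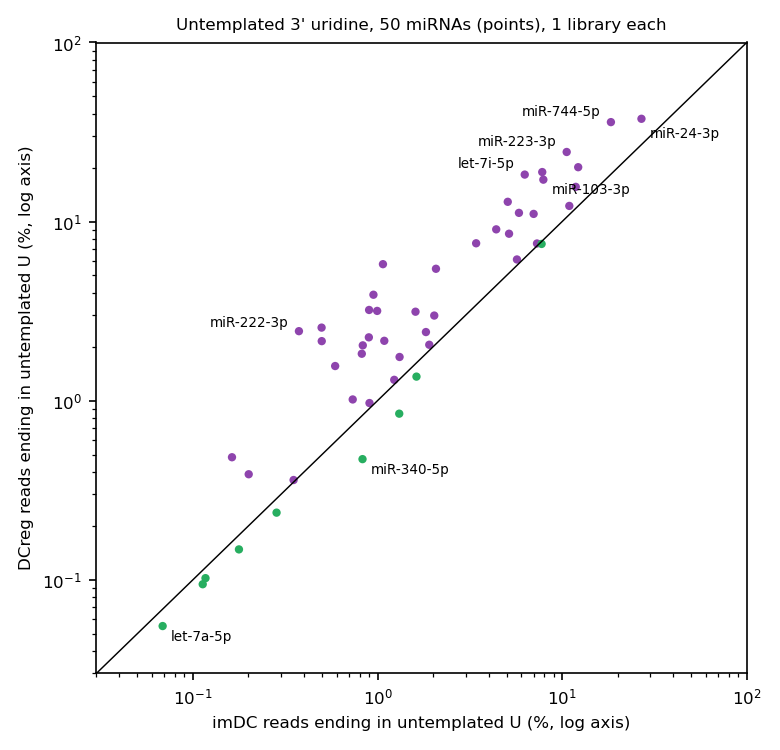
Each point is 1 of the 50 miRNAs with at least 1000 reads in each library, with the percentage of its reads ending in untemplated uridine in imDC on the x axis and in DCreg on the y axis, both log axes. Purple points (41) lie above the line of equality and green points (9) below it.

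For some members the deposited value and the reads went apart. The recount held under 5% of the deposited value in both libraries for 35 of the 345, of which 13 were at 100 ppm or more. Of the 35, 12 were among the miRNAs called higher and 13 among those called lower. The largest was miR-191-5p, deposited at 31608 ppm in imDC and 7052 ppm in DCreg, 4.48-fold lower, with 0 reads in both lists. It is 1 of 7 of the 35 whose sequence holds a run of 4 adenines. Reads with that run were scarce in both lists, and whether they had been removed from the lists was not tested. Among miRNAs at 100 ppm or more, by a difference of 4-fold or more between the deposited and the recounted ratio, miR-129-2-3p, miR-3074-5p, miR-505-5p, miR-5097 and miR-5103 stood out. miR-505-5p stood at 104 and 74.5 ppm in the deposited values, while its recounted reads were 250 and 27, a ratio 6.91-fold lower (4.64 to 10.7). miR-5103 was deposited as 3.21-fold higher and had 13 and 0 reads.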

How the data were processed

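Small RNAs of 18 to 30 nt were amplified for 12 PCR cycles, sequenced, cleared of other RNA classes and compared with miRBase release 19 to give copy numbers of unique sequences, per the labels' protocols. The values of the series table are whole numbers per hairpin arm that the authors deposited as normalised counts, per the file headers. The authors deposited these normalised values without a stated scale factor in the sources used here, so they were treated as a score and no count model was fitted. No genome build is named in those sources, and RefSeq GRCm38.p6 supplied sequences and positions (509 of 715 hairpins matched, and 265 of 345 miRNAs with the same mature sequence), with host genes from GENCODE.

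Values were summed over hairpins and scaled to 1000000 per library. The log2 ratio used a pseudocount of 0.5 deposited units, and folds are plain ratios. With a value of 0 a floor of 3 units was used. Calls need 2-fold. The other scalings were the trimmed mean of M-values, the median of ratios, all listed reads as the total, and the total without the 5 most abundant miRNAs of either library or without let-7. For the recount, deposited unique sequences of at least 16 nt were matched exactly, allowing a 5′ shift of 2 nt and up to 5 unmatched 3′ bases, and ties were divided equally. Intervals are exact Clopper-Pearson limits at 95%. Deposited totals ranged from 2725948 to 5251069. The scripts (Python 3.11.15, NumPy 2.4.6, SciPy 1.17.1, Matplotlib 3.10.9) were tested on simulated data.

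The miRNAs named are the 15 most shifted either way at 100 ppm or more, the 10 most abundant of each library, members of the lists, clusters and seeds, hairpins whose ratio of arms differed by 4-fold or more, and miRNAs whose deposited and recounted ratios differed by 4-fold or more. miRNAs under 100 ppm with values were added after their values were seen. The members and lists were chosen with earlier results of these data known, so no list is independent evidence of its direction.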

Additional observations from a re-analysis of the deposited data

How the results depend on the processing

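With 1 library a cell type no replicate can be left out, and no error between animals or cultures can be given. No paired analysis was possible because each group has a single library and no test was made. The median log2 ratio of −1.25 was −0.60 with the trimmed mean of M-values, −0.61 with the median of ratios, −1.78 with all reads as the total, −0.90 without the 5 most abundant miRNAs of either library and −0.70 without let-7. Recounted reads gave 35 higher and a median of −1.91. With no unmatched 3′ bases these were 32 and −1.84, with single best matches 34 and −1.92, and with 1 mismatch 35 and −1.91. These recounts cover fewer miRNAs, 286, 271, 286 and 300 in that order. At 100 ppm or more there were 27 higher and 94 lower, and with no minimum 204 and 416 with a median of −0.64 over 976 miRNAs. Leaving out miRNAs that lack recounted reads, an alternative added after the files were seen, gave 51 higher and 174 lower. A pseudocount of 5 ppm gave 59 and 178. Of 925 log2 ratios of named miRNAs under the alternatives, 249 moved little, 666 moved and 10 reversed. Of 94 miRNAs named in the text, 4 reversed, each only in recounted reads, and the cause was not tested. miR-140-3p had a log2 ratio of −0.30 when reads with unmatched 3′ bases were left out, against 1.39 in the deposited values. In the 4 recounts, taken in the order above, miR-93-3p stood at −2.98, −4.02, −3.01 and −3.07 against 1.36, and miR-5103 at −4.33, −1.95, −4.36 and −4.42 against 1.68, both on few reads. miR-511-3p stood at −0.26 with 1 mismatch, against 1.91. Of 225 list medians under the alternatives, 192 moved little, 33 moved and none reversed.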

Other observations

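Among the reads that matched no miRNA, fragments of small nucleolar RNAs took 0.372% of all listed reads in imDC and 1.28% in DCreg. Snord14c, a guide RNA for ribosomal RNA methylation, stood at 679 reads per 1000000 in imDC, 606 in maDC and 4134 in DCreg. Gm24826 stood at 483, 697 and 3771. Mitochondrial ribosomal RNA took 0.0388% in imDC, 0.0770% in maDC and 0.273% in DCreg. The labels state that such classes were filtered, so these are remnants, and their shares are values of single libraries. Reads of 16 to 20 nt took 16.6% of the imDC list and 16.8% of the DCreg list, and reads of 21 to 23 nt took 76.5% and 79.6%.

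For miR-182-5p the most copied form in DCreg was 16 nt long, which is 9 nt short of the annotated 3′ end, with 305 reads or 39.2% of its reads. In imDC the most copied form was 26 nt long, with 37 reads or 23.1%. For miR-9-5p the most copied form in DCreg also had 16 nt (22 reads), while in imDC it was the annotated form of 23 nt with 5208 reads or 53.0%.

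The reads held few runs of 4 adenines. Such reads numbered 4776 in imDC (0.0729%) and 2920 in DCreg (0.0595%). In the deposited table, miRNAs with such a run in their mature sequence summed to 240578 units in imDC (4.58%) and 71328 in DCreg (2.62%). Of 9 members with the run, 7 were among those whose recount held under 5% of the deposited value, including miR-191-5p, miR-130a-3p, miR-511-3p and miR-129-2-3p. miR-19b-3p and miR-320-3p kept reads, with 1727 and 50 for the first and 4750 and 3094 for the second. Runs of 4 cytosines, guanines or thymines were present in 0.935%, 3.19% and 0.964% of the imDC reads.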
